A study of Saccharomyces cerevisiae with 48 samples.

Results

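The outer 30 kb of each chromosome of budding yeast, Saccharomyces cerevisiae, was followed through meiotic S phase as relative DNA copy number. An end was defined by position alone. On the left it holds every listed position up to 30000, and on the right every listed position within 30 kb of the highest one listed for that chromosome. That highest position lies inside the chromosome by an amount that differs between ends, and genes known to lie further out place it well inside at the right ends of chromosomes I, VII, VIII, XV and XVI. Distances on the right are therefore distances from the highest listed position, not from the telomere. This gave 313 positions at 32 ends, of 4568 positions listed on 16 chromosomes. The left end of chromosome III, with 10 of these positions, lies in the arm whose replication origins are known to have been deleted in some of the strains. It was kept apart, so that values for "the ends" are means over 303 positions at 31 ends, set against 4255 positions elsewhere, called the rest of the genome.

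The cultures were sampled after transfer to potassium acetate medium, which brings starved yeast synchronously through meiotic S phase. There were 6 strains and 1 culture of each, an ars∆ and an ARS+ strain in each of 3 backgrounds, DDK OP, tof1∆ and WT (wild type). Strains called DDK OP overproduce DDK, or Cdc7-Dbf4, the kinase that switches on replication origins. Tof1 travels with the replication fork and is missing in tof1∆ strains. The ars∆ strains lack origins on the left arm of chromosome III, while the ARS+ strains keep them.

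The DNA next to a telomere is a well-known late-replicating domain of the yeast genome. In dividing cells the telomere-binding protein Rif1 brings protein phosphatase 1 to origins near chromosome ends, where it reverses the phosphorylation by DDK that these origins need to fire. The ends also carry repeated X and Y' elements and families of nearly identical genes, such as the PAU seripauperins, the COS genes, the YRF1 helicases of Y' elements and the FLO flocculins. The sources used here do not say how reads from such copies were assigned. Gene names given for an arm are its outermost named genes in the order of the later RefSeq assembly R64, and which of them lie among the listed positions was not determined, except where stated.

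The values are ratios in the authors' deposited tables. They were read on a log2 scale after division by the median ratio of the sample, so that 0 is the median position of the genome. DNA that replicates before most of the genome rises above 0 during S phase, and DNA that replicates after it falls below 0. Ratios at the ends lay between 0.605 and 1.39, within the range of 0.549 to 1.47 of all positions, and their denominator is unknown. The depth is unknown, because the tables hold no counts. Over 30-kb segments of the genome, the SD of the values was 0.039 ± 0.0059 at 1 hr and was highest at 3 hr, with 0.066 ± 0.016 (SD over n = 6 cultures). Over the 32 ends it was 0.054 ± 0.011 at 1 hr and 0.072 ± 0.021 at 3 hr (SD, n = 6).

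A first question is whether the ends as a class trailed the rest of the genome. At 1 hr the ends exceeded the rest by 0.014 ± 0.010, and at 4 hr the difference was -0.036 ± 0.027 (SD, n = 6). In between it was 0.0054 ± 0.030 at 1.5 hr, 0.013 ± 0.022 at 2 hr, -0.0031 ± 0.018 at 2.5 hr, -0.013 ± 0.023 at 3 hr and -0.020 ± 0.018 at 3.5 hr (SD, n = 6). The mean difference was thus above 0 up to 2 hr and below 0 from 2.5 hr on. The ends were above the rest at 1 hr in 5 of 6 cultures and below it at 4 hr in 5 of 6. None of the 7 times passed after adjustment, the smallest p being 0.0625 at 1 and 4 hr in an exact sign-flip permutation over cultures (adjusted p = 0.22 for both). The smallest p this test can give with 6 cultures is 0.031, so 1 culture of opposite sign is enough to miss an unadjusted threshold of 0.05.

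**Figure D1:**
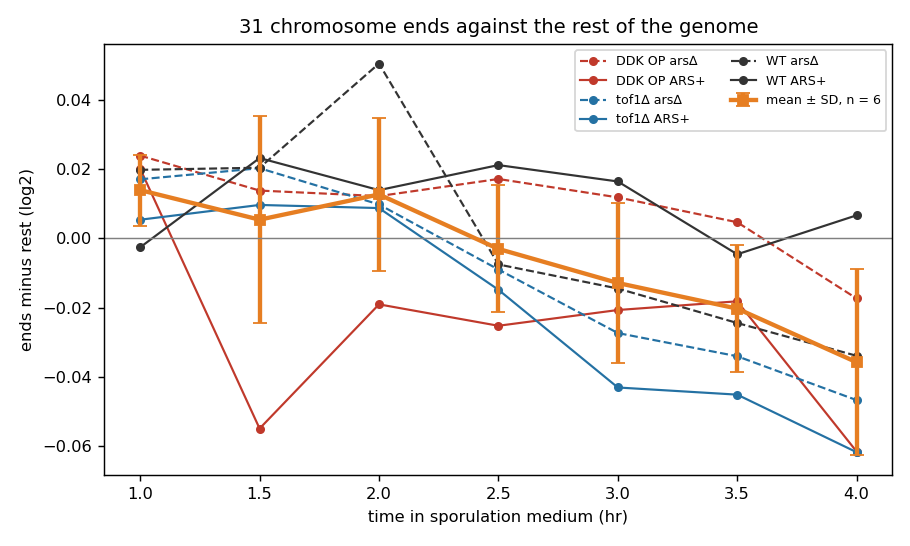
Mean log2 value of the 31 ends minus that of the rest of the genome (vertical axis) against hours in sporulation medium, for 1 culture per thin line and as mean ± SD of 6 cultures (thick line). The mean lies at 0.014 at 1 hr and at -0.036 at 4 hr, and the WT ARS+ culture ends above 0 while the other 5 end below it.

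The WT ARS+ culture was the exception at 4 hr, when its ends stood 0.0067 above the rest. The other differences at 4 hr were -0.017 in DDK OP ars∆, -0.062 in DDK OP ARS+, -0.047 in tof1∆ ars∆, -0.062 in tof1∆ ARS+ and -0.034 in WT ars∆. The DDK OP ARS+ culture differed from the others earlier, at 1.5 hr, when its difference was -0.055 and those of the other 5 cultures ran from 0.0096 to 0.023.

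To remove any factor that all times of a culture share, a change index was formed by subtracting the 1 hr value from the average of 2 to 4 hr. The ends had a change index of -0.024 ± 0.021 and the rest of the genome one of 0.0022 ± 0.0012 (SD, n = 6). The difference was -0.018 in DDK OP ars∆, -0.049 in DDK OP ARS+, -0.039 in tof1∆ ars∆, -0.037 in tof1∆ ARS+, -0.026 in WT ars∆ and 0.013 in WT ARS+. It was negative in 5 of 6 cultures and averaged -0.026 ± 0.022 (SD over n = 6, exact sign-flip permutation p = 0.0625, adjusted p = 0.19 over 12 comparisons), which did not pass. Since the index subtracts the 1 hr value, the excess of the ends at 1 hr is part of it. The share of end positions below 0 was 64.7% in DDK OP ars∆, 77.6% in DDK OP ARS+, 69.6% in tof1∆ ars∆, 71.6% in tof1∆ ARS+ and 66.7% in WT ars∆, but 42.6% in WT ARS+. In the rest of the genome it ran from 48.2% to 50.7% over the 6 cultures.

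The mean over all times from 1 to 4 hr, the level index, was -0.0036 ± 0.014 at the ends and 0.0021 ± 0.0015 in the rest (SD, n = 6). Their difference of -0.0057 ± 0.015 (SD over n = 6, exact sign-flip permutation p = 0.44, adjusted p = 0.48) had either sign in 3 cultures. The small chromosomes I, III and VI had high means outside the ends at 1 hr, at 0.11 ± 0.041, 0.067 ± 0.030 and 0.093 ± 0.027 (SD, n = 6). Means of the other 13 chromosomes at 1 hr lay between -0.010 and 0.018. Set against the rest of its own chromosome, a comparison added after the data were seen, the excess of the ends at 1 hr was 0.0012 ± 0.0076 (SD, n = 6), against 0.014 for the rest of the genome. In that comparison the level index of the ends was -0.019 ± 0.016 and below 0 in 6 of 6 cultures (SD over n = 6, exact sign-flip permutation p = 0.031, adjusted p = 0.15). The difference at 4 hr was then -0.045 ± 0.027 and negative in 6 of 6 cultures (SD over n = 6, exact sign-flip permutation p = 0.031, adjusted p = 0.11), so neither passed after adjustment.

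The low values were not limited to the outermost DNA. Compared with positions over 100 kb from both ends, the change index was -0.026 ± 0.029 within 10 kb of the end (82 positions), -0.031 ± 0.022 from 10 to 20 kb (103 positions) and -0.031 ± 0.024 from 20 to 30 kb (118 positions; SD, n = 6 for each). It was -0.031 ± 0.017 from 30 to 40 kb, -0.023 ± 0.016 from 40 to 50 kb and -0.012 ± 0.0083 from 90 to 100 kb (SD, n = 6). The pooled means showed no step at 30 kb: positions 27.5 to 30 kb from an end had -0.037 ± 0.020 and those 30 to 32.5 kb away had -0.029 ± 0.016 (SD, n = 6). Right arms are counted here from the highest listed position, so a step at a fixed distance from the telomere could be blurred. The zones from 0 to 10, 10 to 20 and 20 to 30 kb and the whole stretch from 30 to 100 kb were tested, and none passed (exact sign-flip p from 0.0625 to 0.094, adjusted p from 0.19 to 0.23). Left ends other than III, which are counted from the chromosome start, had -0.043 ± 0.032 within 10 kb and -0.044 ± 0.029 from 10 to 20 kb. They had -0.037 ± 0.031 from 20 to 30 kb, -0.036 ± 0.023 from 30 to 40 kb and -0.0081 ± 0.012 from 90 to 100 kb (SD, n = 6 for each). The ends differed from the adjacent 30 to 100 kb by -0.012 ± 0.015 (SD over n = 6, exact sign-flip permutation p = 0.13, adjusted p = 0.25), with the WT ARS+ culture again on the other side of 0. At 4 hr each 10-kb zone of the ends was below positions over 100 kb away in 5 of 6 cultures. The zones from 30 to 40 and 40 to 50 kb were so in 6 of 6, with mean differences of -0.032 ± 0.018 and -0.027 ± 0.022 (SD, n = 6). Each 10-kb zone from 50 to 80 kb was so in 5 of 6, and each from 80 to 100 kb in 4 of 6.

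**Figure D2:**
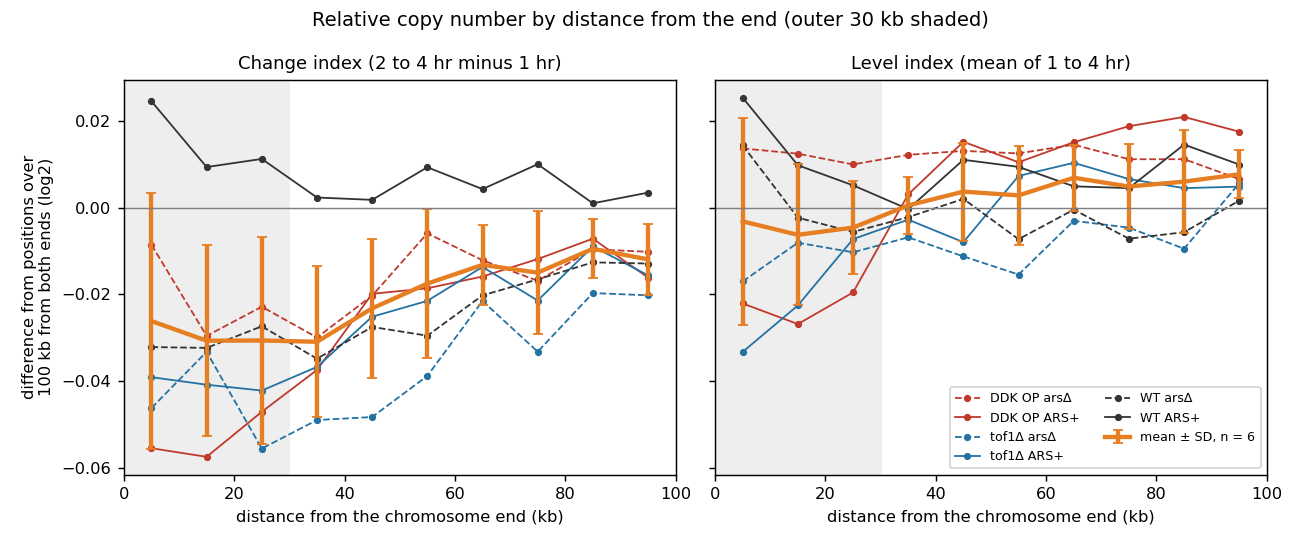
Change index (left) and level index (right) in 10-kb zones by distance from the chromosome end, in kb, as the log2 difference from positions over 100 kb from both ends, with 1 culture per thin line and mean ± SD of 6 cultures (thick line). The change index is near -0.03 on average out to 40 kb and -0.012 from 90 to 100 kb, and in the change index panel WT ARS+ lies above 0 throughout. Distance on the right arms runs from the highest listed position.

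The spread between cultures was wider at the ends. The SD of the change index of a single position over the 6 cultures had a median of 0.052 at the ends and 0.043 elsewhere. Fewer positions are listed near left ends: 9 of 16 left ends and 0 of 16 right ends have under 9 positions of a possible 12. The median SD of an end over the 6 cultures was 0.049 for those 9 ends and 0.030 for the 23 fuller ones. Left ends other than III averaged -0.036 ± 0.025 and right ends -0.017 ± 0.019 in change index (SD, n = 6), which was not tested. The mean over cultures was below 0 at 15 of 15 left ends and 10 of 16 right ends, against 52.0% of all 30-kb segments (213 of 410).

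Taken end by end, the change index was below 0 at most ends and above 0 at a few. An index below 0 is a fall from an end's own earliest value, and need not place the end below the median of the genome. I left and VI left had an index below 0 but means above 0 at every time, with 0.0046 and 0.020 at 4 hr. I right had an index above 0, and its mean was already 0.10 at the earliest time. In a limma fit of 410 segments of 30 kb, counted inward from each end, 17 of 32 ends had a change index below 0 (adjusted p under 0.05), which is 53.1% of ends against 31% of all segments. Only 4 ends were above 0, which is 12.5% of ends against 29.8% of all segments. The remaining 11 did not pass. The median change index was -0.037 over ends and -0.0019 over all segments. Without the WT ARS+ culture, 20 ends passed below 0 and 3 above it. The shares of all segments in that fit are not given here, so this shift in counts may not be particular to the ends.

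**Figure D3:**
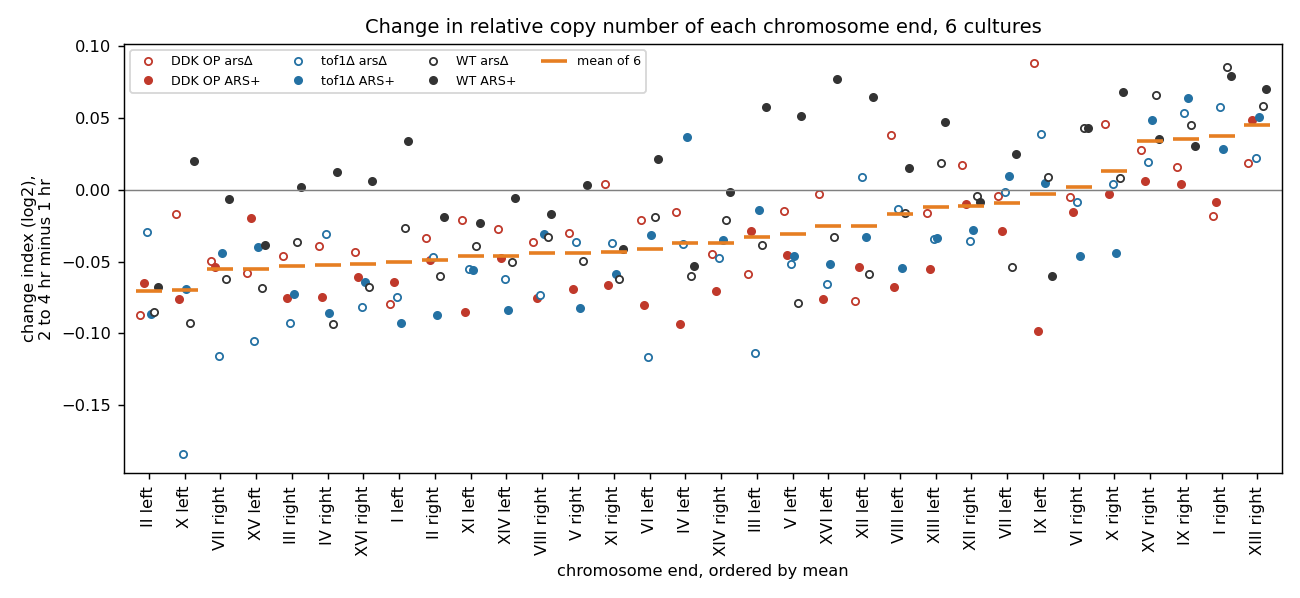
Change index (log2; mean of 2 to 4 hr minus 1 hr) of each of the 32 ends, ordered by mean, with 1 point per culture and a bar at the mean of 6. The ends run from -0.070 (II left) to 0.045 (XIII right), and the WT ARS+ points lie above the mean at most ends.

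The lowest mean belonged to the left end of chromosome II (9 positions, 10000 to 30000 in sacCer2), an arm whose outermost named genes include PAU9 and PKC1, the protein kinase C of the cell wall pathway. Its change index was -0.087 in DDK OP ars∆, -0.064 in DDK OP ARS+, -0.029 in tof1∆ ars∆, -0.087 in tof1∆ ARS+, -0.085 in WT ars∆ and -0.068 in WT ARS+. All 6 cultures were thus below 0, with a mean of -0.070 ± 0.022 (SD, n = 6, limma adjusted p = 4.9e-05). The mean stood at 0.021 ± 0.032 at 1 hr, at -0.0023 ± 0.040 at 1.5 hr, at -0.020 ± 0.034 at 2 hr, at -0.030 ± 0.024 at 2.5 hr, at -0.070 ± 0.049 at 3 hr and at -0.063 at both 3.5 hr (± 0.022) and 4 hr (± 0.044; SD, n = 6). Each 10-kb step of this end passed on its own, at -0.067, -0.066 and -0.075 from the outside inward (limma adjusted p = 0.029, 0.00077 and 0.00053). The outermost step rests on position 10000 alone, whose SD over the 6 cultures was 0.091.

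The left end of chromosome X, an arm whose outermost named genes include PAU1, the sorting receptor homologue VTH2 and the hexose transporter HXT9, rested on 5 positions (20000 to 30000). It had a change index of -0.017 in DDK OP ars∆, -0.076 in DDK OP ARS+, -0.18 in tof1∆ ars∆, -0.069 in tof1∆ ARS+, -0.093 in WT ars∆ and 0.020 in WT ARS+. The tof1∆ ars∆ culture lay far below the others, and the mean of -0.070 ± 0.070 (SD, n = 6, limma adjusted p = 0.0055) has the widest spread of all ends. It was also the lowest end at 4 hr, at -0.14 ± 0.051 and below 0 in 6 of 6 cultures (SD, n = 6).

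The right end of chromosome VII (12 positions, 1037500 to 1065000) is one of those whose listed positions stop well inside the chromosome, short of the arm's maltose utilization cluster. By culture the change index was -0.050 in DDK OP ars∆, -0.054 in DDK OP ARS+, -0.12 in tof1∆ ars∆, -0.044 in tof1∆ ARS+, -0.062 in WT ars∆ and -0.0061 in WT ARS+. All 6 were below 0, and the mean was -0.055 ± 0.035 (SD, n = 6, limma adjusted p = 0.0011). The mean was 0.016 ± 0.031 at 1 hr, -0.070 ± 0.049 at 3 hr and -0.054 ± 0.031 at 4 hr (SD, n = 6).

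The left end of chromosome XV has 4 listed positions (15000 to 22500) on an arm that begins with AAD15, BDS1, an arylsulfatase gene, and PAU20. The change index there was -0.058 in DDK OP ars∆, -0.019 in DDK OP ARS+, -0.11 in tof1∆ ars∆, -0.040 in tof1∆ ARS+, -0.068 in WT ars∆ and -0.038 in WT ARS+, with a mean of -0.055 ± 0.030 (SD, n = 6, limma adjusted p = 0.00060). All 6 cultures were below 0. The call depended on the baseline: with the mean of 1 and 1.5 hr as baseline the mean was -0.026 and no longer passed (limma adjusted p = 0.069).

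The other 13 ends that passed below 0 were I left, II right, III right, IV left, IV right, V right, VI left, VIII right, XI left, XI right, XIV left, XIV right and XVI right. Their means ran from -0.053 ± 0.034 at III right to -0.037 ± 0.024 at XIV right (SD, n = 6). At II right, VIII right, XI left, XIV left and XIV right all 6 cultures were below 0, and at each of the other 8 only 5 were. II right, an arm that ends with a maltose cluster of MAL32, MAL31 and MAL33, had -0.049 ± 0.023 (SD, n = 6), and IV right had -0.052 ± 0.040 (SD, n = 6). At IV left the call was lost without any of 4 cultures (DDK OP ARS+, tof1∆ ars∆, WT ars∆ or WT ARS+), with limma adjusted p from 0.050 to 0.093 and means from -0.037 to -0.026.

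The 4 ends that passed above 0 in change index were all right ends with 12 listed positions. The right end of chromosome XIII (890000 to 917500), whose arm has PAU19, the enolase-related gene ERR3, the iron transporter FET4 and the alcohol dehydrogenase ADH6 among its outermost genes, was highest. Its change index was 0.018 in DDK OP ars∆, 0.049 in DDK OP ARS+, 0.022 in tof1∆ ars∆, 0.051 in tof1∆ ARS+, 0.058 in WT ars∆ and 0.070 in WT ARS+. All 6 cultures were above 0, with a mean of 0.045 ± 0.020 (SD, n = 6, limma adjusted p = 0.00089). The mean was -0.0094 ± 0.038 at 1 hr, 0.038 ± 0.035 at 2 hr, 0.053 ± 0.031 at 3 hr and 0.014 ± 0.049 at 4 hr (SD, n = 6).

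The right end of chromosome IX (405000 to 432500), on an arm that ends with PAU15, the aspartyl protease YPS6 and the glutathione transferase GTT1, also rose in 6 of 6 cultures. Its change index was 0.016 in DDK OP ars∆, 0.0042 in DDK OP ARS+, 0.054 in tof1∆ ars∆, 0.064 in tof1∆ ARS+, 0.046 in WT ars∆ and 0.030 in WT ARS+, with a mean of 0.036 ± 0.023 (SD, n = 6, limma adjusted p = 0.0054). The right end of chromosome XV (1040000 to 1067500), where the listed positions stop short of PAU21 and HSP33, of a chaperone-related family, had 0.028 in DDK OP ars∆, 0.0061 in DDK OP ARS+, 0.020 in tof1∆ ars∆, 0.048 in tof1∆ ARS+, 0.066 in WT ars∆ and 0.035 in WT ARS+. All 6 were above 0, and the mean was 0.034 ± 0.021 (SD, n = 6, limma adjusted p = 0.0063). At all 3 ends the innermost 10 kb carried the highest value, 0.058 at XIII right, 0.058 at IX right and 0.050 at XV right (limma adjusted p = 0.0037, 0.0023 and 0.0072). Their outermost 10 kb had 0.034, 0.033 and 0.022 in the same order of ends, and none of these passed (limma adjusted p = 0.054, 0.053 and 0.22).

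The right end of chromosome I (170000 to 197500) had a change index of -0.018 in DDK OP ars∆, -0.0082 in DDK OP ARS+, 0.058 in tof1∆ ars∆, 0.029 in tof1∆ ARS+, 0.086 in WT ars∆ and 0.080 in WT ARS+. The DDK OP cultures were below 0 and the other 4 above it, and the mean was 0.038 ± 0.044 (SD, n = 6, limma adjusted p = 0.024). The call was lost without tof1∆ ars∆ (mean 0.034, limma adjusted p = 0.067), WT ars∆ (0.028, adjusted p = 0.11) or WT ARS+ (0.029, adjusted p = 0.082). The highest position listed for chromosome I lies well inside the chromosome and short of FLO1 and the phosphatase gene PHO11.

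**Figure D4:**
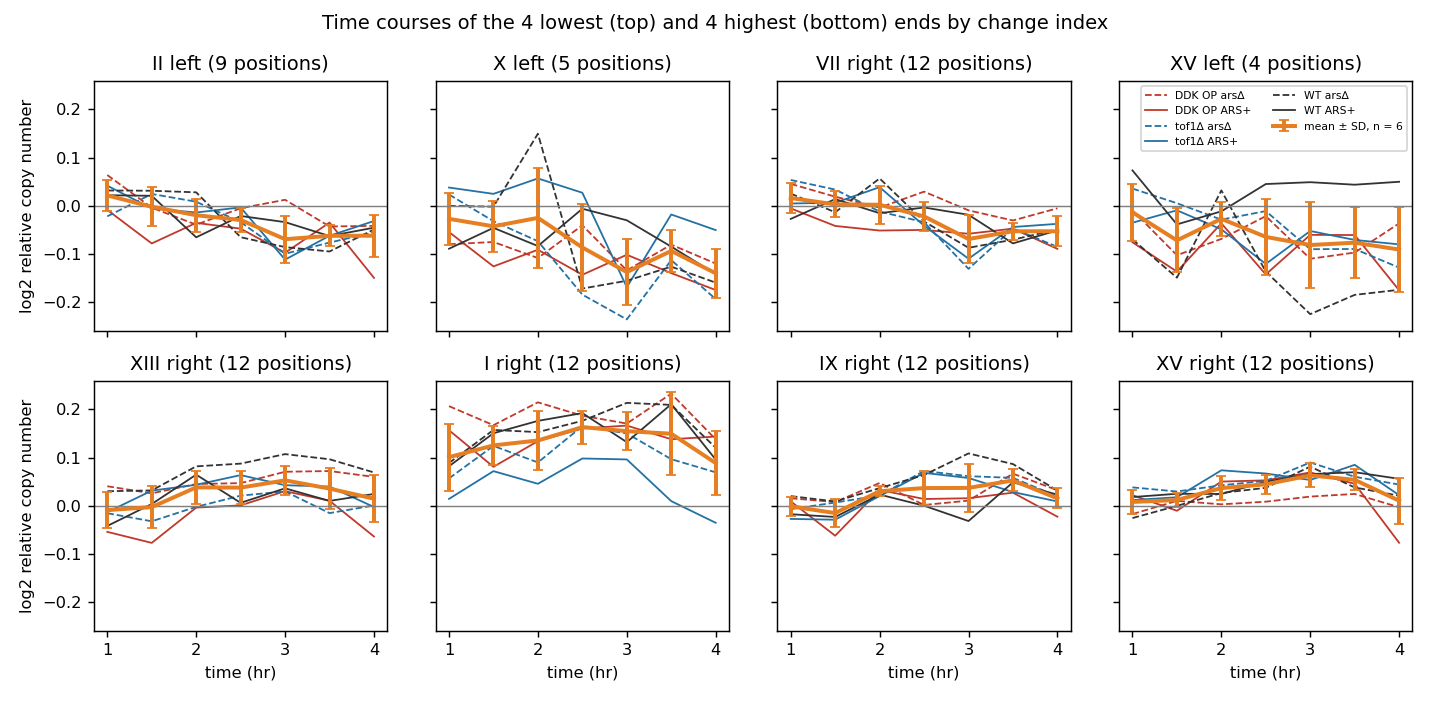
Log2 relative copy number against time (hr) for the 4 ends with the lowest (top) and the 4 with the highest (bottom) mean change index, with 1 culture per thin line and mean ± SD of 6 cultures (thick line). The lowest ends reach means of -0.054 to -0.14 at 4 hr, and XIII right, IX right and XV right peak between 3 and 3.5 hr at means of 0.052 to 0.063.

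The 11 ends that did not pass in change index were III left, V left, VI right, VII left, VIII left, IX left, X right, XII left, XII right, XIII left and XVI left. Their means ran from -0.033 ± 0.056 at III left to 0.013 ± 0.039 at X right (SD, n = 6), and 9 of them were below 0. In segments of 10 kb, 33 of the 87 that make up the ends passed below 0, which is 37.9% against 22.5% of all 10-kb segments. There were 6 above 0, which is 6.90% against 22.6%. By distance, 7 of 24 outermost segments, 12 of 31 middle ones and 14 of 32 innermost ones passed below 0, and so did 15 of 32 in the next 10 kb inward. The 6 segments above 0 lay at I right, IX right, XIII right and XV right, none of them in the outermost 10 kb.

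The order of the ends was partly shared by the cultures. Over the 32 ends, Pearson's r between the change indices of 2 cultures had a median of 0.50 and ran from 0.073 to 0.66 over 15 pairs. Over the 23 ends with 9 or more positions the median was 0.62, with a range of 0.41 to 0.79. These are descriptions across ends, and the values of 1 culture share their 1 hr sample.

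In level index, 12 of 32 ends were below 0 and 7 above it in the limma fit, 37.5% and 21.9% of ends, against 26.1% and 24.4% of all segments. The split was 15 below and 5 above when samples were scaled by their mean ratio and not the median. Without the DDK OP ARS+ culture 5 ends were below 0, and without tof1∆ ars∆ 7 were. The shares of all segments in these settings are not given here, so the counts cannot tell whether the ends moved more than the genome. Of the 12 lower ends, 11 also had a change index called below 0, and XII left was the exception. The lowest were X left at -0.080 ± 0.039, IV right at -0.064 ± 0.031 and XV left at -0.061 ± 0.054 (SD, n = 6). The highest were I right at 0.13 ± 0.051, VI right at 0.090 ± 0.038, VI left at 0.084 ± 0.058 and I left at 0.059 ± 0.041 (SD, n = 6). These 4 lie on chromosomes I and VI, whose means outside the ends were high at 1 hr, and their own 1 hr values were 0.10 ± 0.070, 0.091 ± 0.040, 0.12 ± 0.092 and 0.10 ± 0.062 in that order of ends (SD, n = 6). The part of that level in their calls was not tested. The other 3 above 0 were III left, IX right and XV right.

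Chromosome III differs from the others in its design, since the ars∆ strains lack origins of its left arm. The left end (10 positions, 2500 to 30000) is on an arm that in the R64 order begins with GEX1 and VBA3. Next come the silent mating-type genes HMLALPHA2 and HMLALPHA1 and the catabolic serine deaminase CHA1. In DDK OP ars∆ the values from 1 to 4 hr were 0.084, 0.030, 0.013, 0.050, 0.049, 0.0053 and 0.011, against 0.084, 0.00028, 0.032, 0.099, 0.14, -0.0011 and 0.0049 in DDK OP ARS+. The ARS+ culture of this pair was the higher from 2 to 3 hr, and both were near 0 from 3.5 hr on.

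In tof1∆ ars∆ the left end of chromosome III had 0.091, 0.060, 0.037, 0.034, -0.059, -0.034 and -0.093 from 1 to 4 hr, against 0.011, 0.018, 0.022, 0.026, 0.019, -0.055 and -0.026 in tof1∆ ARS+. In WT ars∆ it had 0.045, 0.029, 0.13, 0.057, -0.077, -0.059 and -0.021, against 0.010, -0.035, 0.053, 0.066, 0.031, 0.10 and 0.092 in WT ARS+. In these pairs the ars∆ culture was the higher up to 2 hr and, apart from tof1∆ at 3.5 hr, the lower from 3 hr on.

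**Figure D5:**
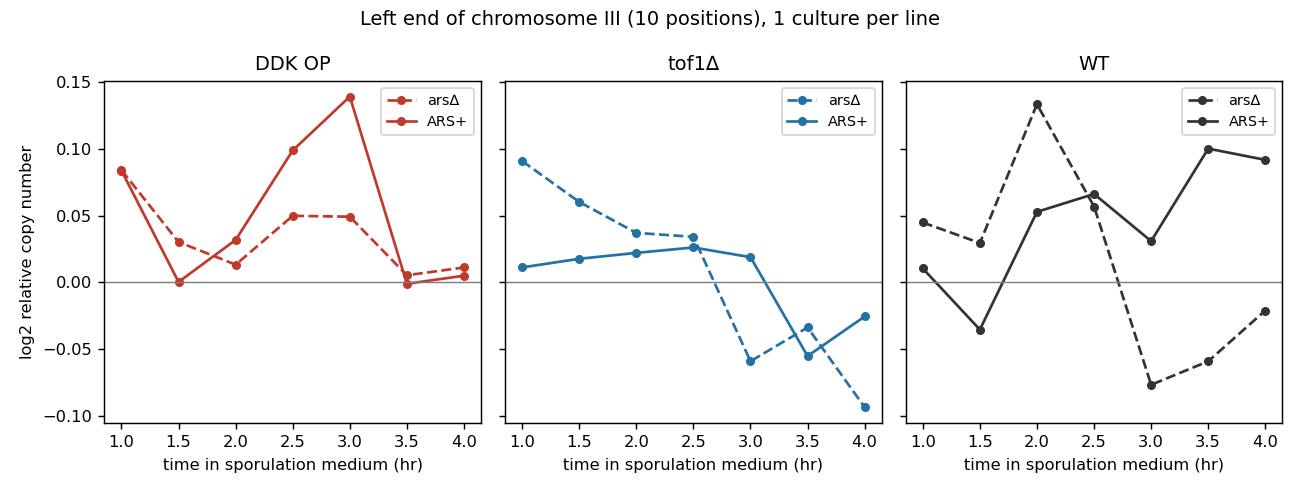
Log2 relative copy number of the left end of chromosome III against time (hr), with 1 culture per line, in the DDK OP, tof1∆ and WT backgrounds. From 3 hr on, WT ars∆ lies between -0.077 and -0.021 and WT ARS+ between 0.031 and 0.10.

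The change index of this end was -0.058 in DDK OP ars∆ against -0.029 in DDK OP ARS+, -0.11 in tof1∆ ars∆ against -0.014 in tof1∆ ARS+, and -0.038 in WT ars∆ against 0.058 in WT ARS+. The ars∆ culture was the lower in all 3 pairs, by -0.029, -0.10 and -0.096. The 1 hr value that the index subtracts is part of this. It was 0.091 in tof1∆ ars∆ against 0.011 in tof1∆ ARS+, and 0.045 in WT ars∆ against 0.010 in WT ARS+. The mean difference was -0.075 ± 0.040 (SD, n = 3, exact sign-flip p = 0.25, the smallest that 3 pairs allow), and it did not pass in the limma fit either (limma adjusted p = 0.066). In that fit the adjusted p was 0.0061 when segments under 8 positions were left out and 0.0014 without the DDK OP pair, and between 0.059 and 0.99 in all other settings tried. In level index the difference was -0.014 ± 0.016 (SD, n = 3, exact sign-flip p = 0.50), with -0.016 in DDK OP, 0.0030 in tof1∆ and -0.030 in WT.

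The right end of chromosome III (12 positions, 277500 to 305000) lies outside the arm with deleted origins, on an arm whose outermost genes include AAD3, the alcohol dehydrogenase ADH7 and PAU3. Its change index was -0.046 in DDK OP ars∆ against -0.075 in DDK OP ARS+, -0.092 in tof1∆ ars∆ against -0.072 in tof1∆ ARS+, and -0.036 in WT ars∆ against 0.0023 in WT ARS+. The signs of the pairs differed, and the fitted difference between ars∆ and ARS+ was -0.010 ± 0.019 (SE, limma adjusted p = 0.98). Each 10-kb step of this end fell, at -0.050, -0.045 and -0.064 from the outside inward (limma adjusted p = 0.011, 0.022 and 0.0020).

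No single end passed in the comparison of DDK OP with wild type. As a class, the ends minus the rest had a change index of -0.049 in DDK OP ARS+ against 0.013 in WT ARS+, and of -0.018 in DDK OP ars∆ against -0.026 in WT ars∆. The background difference was thus -0.062 in the ARS+ pair and 0.0076 in the ars∆ pair, of opposite sign. With 2 cultures against 2, an exact test cannot go below 0.333, so none was run. In the limma fit, which borrows its spread from all segments, 0% of segments (0 of 410) passed in change index and so did no end, and 0.732% (3 segments, no end) passed in level index. At unadjusted p under 0.05 the change index gave 7 of 32 ends and 21 of 410 segments.

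Both DDK OP cultures lay below both WT cultures in change index at 11 of 32 ends, which is 34.4% of ends against 18.5% of all segments. They lay above both at no end, against 13.7% of all segments. The 11 ends were I left, I right, III right, VI left, VI right, VIII right, IX right, XIII left, XIII right, XIV right and XV right. The fitted difference was largest at I right, at -0.096 ± 0.023 (SE, limma adjusted p = 0.085). It passed when segments under 8 positions were left out (limma adjusted p = 0.0057), with a trended prior (0.033) or without DDK OP ARS+ (-0.11, 0.026), and lay from 0.070 to 0.88 in the others tried. At I right the 1 hr values were 0.21 in DDK OP ars∆ and 0.16 in DDK OP ARS+, against 0.089 in WT ars∆ and 0.082 in WT ARS+, and from 2 to 3 hr the DDK OP and WT values overlapped.

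The comparison of tof1∆ with wild type had 1 called end, in level index. As a class, the ends minus the rest had a change index of -0.037 in tof1∆ ARS+ against 0.013 in WT ARS+, and of -0.039 in tof1∆ ars∆ against -0.026 in WT ars∆. The differences of -0.050 and -0.013 have the same sign and share the WT cultures with the DDK OP comparison. In the limma fit 0.244% of segments (1 of 410, no end) passed in change index, while 9 of 32 ends and 42 of 410 segments had unadjusted p under 0.05. Both tof1∆ cultures lay below both WT cultures at 13 of 32 ends, 40.6% of ends against 22.7% of all segments. They lay above both at 2 ends, IV left and IX right, 6.25% against 19.3%.

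The end called in level index was the left end of chromosome IV (6 positions, 17500 to 30000), on an arm whose outermost genes include COS7, the maltose permease MPH2, the sorbitol dehydrogenase SOR2 and the hexose transporter HXT15. It was the only segment of the genome to pass (0.244% of 410). Its level index was -0.10 in tof1∆ ars∆ and -0.069 in tof1∆ ARS+, against 0.052 in WT ars∆ and -0.0039 in WT ARS+. The fitted difference was -0.11 ± 0.027 (SE, limma adjusted p = 0.013). That SE comes from 1 spread shared by all segments. Over the 6 cultures, the SD of the level index ran from 0.036 to 0.058 at ends with under 9 positions. It was 0.057 at IV left, and ran from 0.016 to 0.051 at the fuller ends. The shared spread is too small for this end, so far as its wider SD is not a difference between strains. The difference was present at 1 hr, when the values were -0.076 in tof1∆ ars∆ and -0.11 in tof1∆ ARS+, against 0.088 in WT ars∆ and 0.037 in WT ARS+. The call was lost without tof1∆ ars∆ (-0.084, limma adjusted p = 0.98), tof1∆ ARS+ (-0.14, 0.17) or WT ars∆ (-0.070, 0.99), and the end has too few positions for the fit of segments with 8 or more.

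The ends of chromosomes other than III had no shared direction in the comparison of ars∆ with ARS+. As a class the change index of the ends minus the rest was -0.018 in DDK OP ars∆ against -0.049 in DDK OP ARS+, -0.039 in tof1∆ ars∆ against -0.037 in tof1∆ ARS+, and -0.026 in WT ars∆ against 0.013 in WT ARS+. The differences of 0.031, -0.0019 and -0.039 spread on either side of 0. The ars∆ culture was the lower in all 3 pairs at III left, XIII right and XV left, 9.38% of ends against 10.7% of all segments. It was the higher in all 3 at VI right and IX left, 6.25% against 11.2%. These shares of the ends are close to those of the genome.

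In the limma fit 0.976% of segments (4 of 410) passed in change index for ars∆ against ARS+, 1 of them an end, and 0.488% (2 segments, no end) in level index. At unadjusted p under 0.05 the change index gave 5 of 32 ends and 16 of 410 segments. The end was IX left, which rests on only 3 positions (25000 to 30000). Its change index was 0.088 in DDK OP ars∆ against -0.098 in DDK OP ARS+, 0.039 in tof1∆ ars∆ against 0.0046 in tof1∆ ARS+, and 0.0092 in WT ars∆ against -0.060 in WT ARS+. The fitted difference was 0.097 ± 0.023 (SE, limma adjusted p = 0.028). It shrank to 0.031 (limma adjusted p = 0.98) when the mean of 1 and 1.5 hr replaced 1 hr as baseline. The call was also lost without the DDK OP pair (0.052, adjusted p = 0.43) and without the tof1∆ pair (0.13, adjusted p = 0.054).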

How the data were processed

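The labels name 48 samples, from 6 strains at 8 times. The deposited tables, 1 per strain, give ratios for the 7 times from 1 to 4 hr (42 samples), and 0 hr was not analysed here. The denominator of these ratios is not stated, and they carry no counts, so depth and counting error are unknown. Reads were aligned with BWA (version not given in the sources used here) to sacCer2, per the submitters' processing notes. The labels' protocols give synchronized cultures in 2% potassium acetate, kept at 30 °C.

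Each value was log2 of the ratio divided by the sample's median ratio, with no pseudocount. Right ends are measured from the highest listed position, which stops short of the telomere by differing amounts. Each strain is 1 culture, so the culture is the replicate (n = 6), genotypes differ within that n, and p-values measure only the spread between these cultures. Class differences were tested by exact two-sided sign-flip permutation over cultures. Segments of 30 kb (410) were fitted with limma 3.58.1 (R 4.3.3; lmFit, eBayes). An intercept fit over 6 cultures (residual df 5) gave calls against 0, and fits with terms for background and ars state (residual df 2) gave the comparisons. P-values were adjusted by Benjamini-Hochberg, over every segment or over the family of class tests, with a threshold of 0.05. The intercept and DDK OP fits were also run on simulated independent normal noise with known changes. Such data lack the shared 1 hr sample and any link between neighbouring segments, so these runs cannot support the calls. In the level comparisons the estimated prior df was infinite, so all segments share 1 spread. It is too small for ends of few positions if these vary more, as they did over the 6 cultures in change index and in level index.

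The ends given in full are the 4 lowest and 4 highest in mean change index, III left, and any end called between strains. III right was added after its values were seen. The members, lists and tests were chosen with earlier results of these data known. Gene names and their order come from RefSeq assembly R64, whose coordinates are of another build and served only to see which genes lie well beyond the listed positions. Alternatives were scaling, a pseudocount of 0.1, other index times, other widths, sets of ends and segments, and each culture left out.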

Additional observations from a re-analysis of the deposited data

Results flagged for a closer look

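Among 83 values compared over the 6 cultures (both indices of each end and the class differences), 3 had a culture that stood apart from the other 5 by Dixon's criterion. Chance alone puts about 1 in 20 such groups past it, so 3 is no more than chance gives.

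The level index of the right end of chromosome III was 0.066 in DDK OP ARS+, while the other cultures ran from 0.0072 to 0.019. The level index of the right end of chromosome XI was -0.053 in WT ars∆, with -0.019 to -0.0031 in the others. The ends minus the rest of the genome at 1.5 hr was -0.055 in DDK OP ARS+, with 0.0096 to 0.023 in the others.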

How the results depend on the processing

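The class difference in change index stayed between -0.037 and -0.021 over the settings tried and never passed after adjustment. Scaling of samples cannot alter it by construction. The number of ends called below 0 in change index ran from 13 to 20 and above 0 from 3 to 4. How the shares of all segments moved with these settings is not given here. Reversed values were the level within 10 kb of an end without the outer 5 kb (0.0015), and, against the rest of the same chromosome, the ends at 1.5 hr (-0.0076) and at 2 hr (-0.0014). The difference at 1.5 hr also reversed with left ends only (-0.0020) and without the right ends of I, VII, VIII, XV and XVI (-0.00075), both added after the data were seen, in which the change index was -0.037 and -0.028. Leaving out each culture in turn moved the level within 10 kb of an end from -0.0089 to 0.0029, the ends minus the rest at 2.5 hr from -0.0079 to 0.0014, and IX left in change index from -0.021 to 0.016.

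Counts of called segments between strains were small and moved with the setting. With 2.5 to 3.5 hr minus 1 and 1.5 hr as the change index, tof1∆ against WT had 0 called segments, and ars∆ against ARS+ had 1 segment and 0 ends. With 2 to 4 hr minus 1 and 1.5 hr, these were 0 segments for tof1∆ and 0 ends for ars∆. The level over 1.5 to 4 hr gave 3 segments for tof1∆, and leaving out the outer 5 kb gave 0 ends for ars∆ in change. Segments counted from position 1 gave 3 for DDK OP in change and 2 for tof1∆ in level. Segments with at least 8 positions gave 2 for DDK OP in change, 1 of them an end, 0 for tof1∆ in change and 0 ends for tof1∆ in level. A trended prior gave 2 for DDK OP in change, 1 of them an end, and 2 for tof1∆ in level. In 10-kb segments the shares called were 12.4% below and 14.5% above 0 in level, 0.0845% for DDK OP in change and also in level, 0% for tof1∆ in change, and 0.507% and 0.169% for ars∆ in change and level.

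Without each culture in turn, ends called below 0 in level ran from 5 (without DDK OP ARS+) to 13, with the shares of all segments not given here. Called segments ran from 0 to 5 for DDK OP in change (ends 0 to 2), from 0 to 8 in level (ends 0 to 1), from 0 to 6 for tof1∆ in change (ends 0 to 4) and from 0 to 4 in level (ends 0 to 1). Without each pair, ars∆ had 0 to 2 ends in change, and 2 to 4 segments with 0 to 1 ends in level. The cause of these moves was not tested. Single left-out cultures leave 1 culture in a group, assumed to vary like the others. The count models were not run, since the tables hold ratios. The depth is unknown, so what it limits cannot be given.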
